A study of Mus musculus with 6 samples.

Results

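The cathepsins described here are 10 proteases, Ctsa, Ctsb, Ctsc, Ctsd, Ctse, Ctsh, Ctsk, Ctsl, Ctss and Ctsz, chosen by name among the 21965 genes of the count table. All 10 passed the filter on low counts and were among the 12305 genes tested. RNA was sequenced from interstitial macrophages sorted from the lungs of C57Bl/6 mice aged 6 to 8 weeks and kept free of specific pathogens. The WGP group (3 libraries) received 1 mg of WGP, a yeast β-glucan preparation, into the peritoneum, and the PBS group (3 libraries) received phosphate-buffered saline, with a stated treatment of 6 days and lungs taken on day 7. The labels state neither how many mice made up a library nor whether the libraries came from separate mice, so the p-values measure only the spread between these libraries, part of which may be technical.

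Cathepsins are proteases that mostly work in the acid interior of endosomes and lysosomes. They are made as inactive precursors, carried to lysosomes largely by mannose 6-phosphate receptors, and activated by cleavage. In macrophages they degrade engulfed material, trim the invariant chain and antigens for MHC class II, cleave endosomal Toll-like receptors into their signalling form, and, when secreted, break down matrix. They fall into 3 catalytic classes: Ctsb, Ctsc, Ctsh, Ctsk, Ctsl, Ctss and Ctsz are cysteine proteases, Ctsd and Ctse are aspartic proteases, and Ctsa is a serine carboxypeptidase.

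After WGP Ctsk and Ctsd were much lower than after PBS, Ctsl was moderately lower, and Ctse and Ctsh were higher, while Ctsb and Ctss, the members with the most counts, did not pass the test. Ctsk averaged 7.64 ± 5.96 CPM (read counts scaled to a common library size after TMM normalisation) in WGP libraries and 76.0 ± 7.11 CPM in PBS libraries, and Ctsd averaged 354 ± 35.5 CPM in WGP libraries and 1099 ± 225 CPM in PBS libraries (SD, n = 3 each, as for all such values here). Of the 10 members 5 passed edgeR's quasi-likelihood test at an adjusted p under 0.05, 2 of them higher and 3 lower, where 31.0% of all genes tested passed (15.2% higher and 15.7% lower). With library sizes alone as the scaling, 1 member was higher and 4 lower (Ctsh lost its call and Ctsb passed as lower), and of all genes 1236 were higher and 2460 lower, in place of 1874 and 1935. Without PBS replicates 1 and 3 together 3 members passed, namely Ctsd, Ctse and Ctsl. At least 2-fold lower were 2 members, Ctsk and Ctsd, and at least 2-fold higher was none, where 9.22% of all genes tested passed as at least 2-fold lower and 1.32% as at least 2-fold higher. The median log2 fold change of the 10 was -0.01, against -0.02 for all genes tested. No test of the group was run, so the count of members called is not read as a property of cathepsins as a group.

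**Figure D1:**
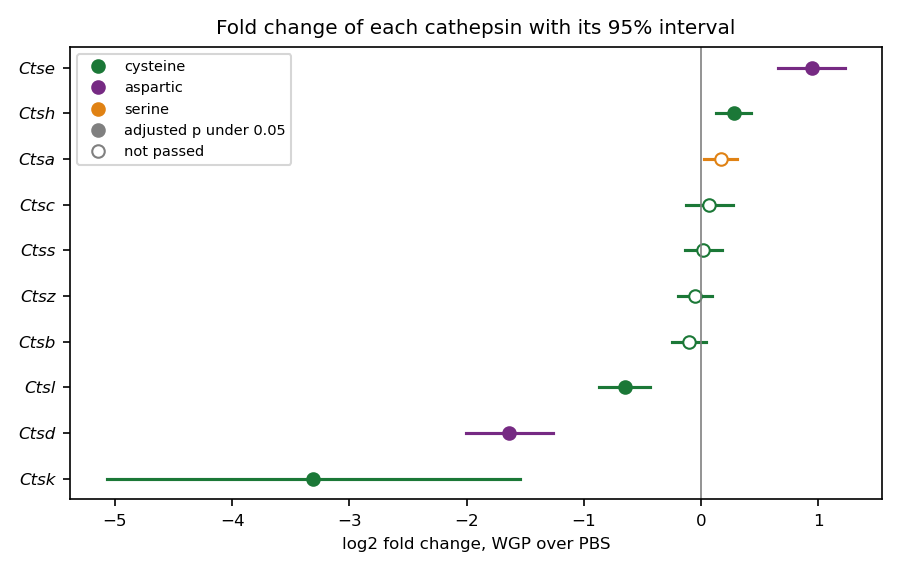
Log2 fold change (WGP over PBS) of each of the 10 cathepsins with its 95% interval, coloured by catalytic class and filled where the adjusted p was under 0.05. Ctsk lies at -3.31 with the widest interval, Ctsd at -1.63 and Ctsl at -0.65, 5 members lie near 0 and are not filled, and Ctsh and Ctse lie above 0.

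The libraries held 18254678 to 19451407 counts after WGP and 18910786 to 20346517 counts after PBS. Y-linked transcripts (4 genes) summed to 205 to 227 CPM in the WGP libraries and to 112, 179 and 9.79 CPM in PBS replicates 1, 2 and 3. PBS replicates 1 and 3, left out together in an alternative fit, thus had the lowest sums. The labels do not state the sex of the mice, and the source of this imbalance between the groups was not tested. Markers of lung cells moved with the groups. Of 15 alveolar macrophage markers 14 fell, and their summed level was 1317 to 1649 CPM in WGP libraries and 5063 to 7654 CPM in PBS libraries. Of 10 classical monocyte markers 9 rose and 1, Chil3, fell. They summed to 10207 to 13523 CPM in WGP libraries and to 7508 to 8625 CPM in PBS libraries. Chil3 is also on the alveolar list and weighs on both sums. It averaged 751 ± 64.4 CPM in WGP libraries and 3478 ± 744 CPM in PBS libraries. Of 15 interstitial macrophage markers 3 rose, 4 fell and 8 did not pass. They summed to 7099 to 8250 CPM in WGP libraries and 8735 to 9773 CPM in PBS libraries. Of 8 endothelial markers 6 fell and 2 did not pass, and they summed to 95.6 to 114 CPM in WGP libraries and 306 to 327 CPM in PBS libraries. Of 10 epithelial markers 7 fell and 1, Napsa, rose, with a median log2 fold change of -3.41. They summed to 603 to 697 CPM in WGP libraries and 899 to 1153 CPM in PBS libraries. Of 8 fibroblast markers 3 fell and 5 did not pass, and they summed to 8.76 to 68.6 CPM in WGP libraries and 99.6 to 141 CPM in PBS libraries. Of 10 neutrophil markers 1 passed, as higher, of 8 T and NK cell markers 1 passed, as lower, and of 6 B cell markers 0 passed in edgeR. No marker of these lists was at 0 throughout the WGP libraries. In bulk RNA, fewer cells of a type and less RNA per cell cannot be told apart, which applies to every value below.

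Per base of transcript, Ctss dominated the family. Ctss, a cysteine endopeptidase that trims the invariant chain and keeps activity at neutral pH, had 1642 ± 111 CPM per kilobase of merged exon in WGP libraries and 1619 ± 13.6 in PBS libraries, and ranked number 10 among all tested genes in both groups on that scale. It held 52.8% ± 1.27 of the summed per-kilobase level of the 10 members in WGP libraries and 47.1% ± 0.94 in PBS libraries. In WGP libraries the order by per-kilobase level was Ctss, Ctsz, Ctsb, Ctsa, Ctsc, Ctsd, Ctsh, Ctse, Ctsl and Ctsk. The neighbouring pairs Ctsc and Ctsd, and Ctse and Ctsl, overlapped between libraries there. In PBS libraries the order was Ctss, Ctsd, Ctsz, Ctsb, Ctsa, Ctsc, Ctsh, Ctsk, Ctsl and Ctse, and Ctsd overlapped with Ctsz and Ctsz with Ctsb. With the longest transcript as the length, 6 of the 10 kept their place in WGP libraries and 5 in PBS libraries, Ctss staying first and the bottom 3 unchanged.

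**Figure D2:**
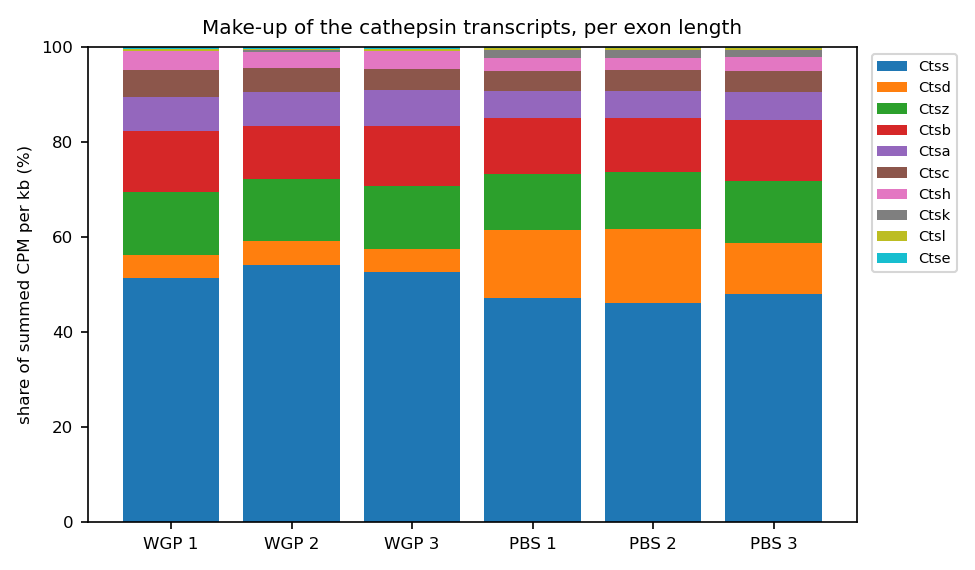
Share of each cathepsin in the summed CPM per kilobase of the 10 members (%), 1 bar per library, WGP on the left and PBS on the right. Ctss makes up 46.1% to 54.0% of every bar, and the Ctsd segment is 4.65% to 5.14% in WGP libraries and 10.8% to 15.5% in PBS libraries.

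The place of single members in the whole transcriptome moved accordingly. Ctsd ranked 305 among the tested genes per kilobase in WGP libraries and 64 in PBS libraries. Ctsk ranked 6105 in WGP libraries and 891 in PBS libraries. Ctse ranked 3692 in WGP libraries and 5663 in PBS libraries. The 10 genes together took 0.749% to 0.810% of all counts in WGP libraries and 0.899% to 0.925% in PBS libraries. Their summed level was 8098 ± 200 CPM in WGP libraries and 8841 ± 209 CPM in PBS libraries. Without Ctsd and Ctsk the sum over the other 8 was 7737 ± 164 CPM in WGP libraries and 7666 ± 135 CPM in PBS libraries, with overlapping libraries. As a share of all counts the same 8 were lower after WGP without overlap, at 0.754%, 0.770% and 0.717% in WGP libraries and 0.791%, 0.785% and 0.804% in PBS libraries, so that difference depends on the scaling.

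The regions before the starts of Ctsk and Ctss are shown because these genes are neighbours on chromosome 3 and behaved differently: Ctsk fell and Ctss did not pass the test. Each line gives the 250 bases before a RefSeq start (GRCm38.p6), 5′ to 3′ on the strand of the gene. The RefSeq start of Ctss is that of GENCODE, and the RefSeq start of Ctsk lies 46 bases before the GENCODE start. Capitals mark GAGGAA (the PU.1 core) on either strand. The windows are chr3:95498960-95499209 (plus strand) for Ctsk and chr3:95526536-95526785 (plus strand) for Ctss.
Ctsk: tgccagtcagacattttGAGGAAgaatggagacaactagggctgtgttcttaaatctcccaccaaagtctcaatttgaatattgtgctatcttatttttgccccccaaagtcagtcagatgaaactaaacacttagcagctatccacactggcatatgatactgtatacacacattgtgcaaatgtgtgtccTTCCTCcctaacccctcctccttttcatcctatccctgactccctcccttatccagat
Ctss: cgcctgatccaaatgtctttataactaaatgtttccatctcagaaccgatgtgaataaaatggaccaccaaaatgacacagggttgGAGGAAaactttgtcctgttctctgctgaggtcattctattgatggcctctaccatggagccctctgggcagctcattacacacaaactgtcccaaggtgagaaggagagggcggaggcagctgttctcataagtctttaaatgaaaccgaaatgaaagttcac

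RefSeq promoter entries matched 7 members, with 8 windows, and the others are Ctsb, Ctse and Ctsh. Of the 8 windows 5 lie wholly outside the GENCODE span of their gene, namely those of Ctsc, Ctsk, Ctss and Ctsz and 1 of the 2 of Ctsa. The other 3 reach into it, with all 250 bases of the Ctsl window, all 250 of the second Ctsa window and 211 of the 250 of the Ctsd window inside the gene. CACGTG (the E-box core of the CLEAR element bound by TFEB) was in 0 of the 5 outside windows. It was in the 3 windows that reach into a gene, at 2 places for Ctsd and at 1 each for Ctsl and Ctsa. The matches for Ctsl and Ctsa are not placed before the annotated start. For Ctsd the match farther from the RefSeq start lies before the GENCODE start, and the nearer match lies inside the gene. GAGGAA occurred at 2 places in the windows of Ctsk and Ctsc and at 1 in that of Ctss. TGANTCA (AP-1) was in 0 of the 8 windows. Among all 32851 RefSeq windows of this length, whether or not they reach into a gene, 6.02% held CACGTG, 23.3% GAGGAA and 6.75% TGANTCA. These are matches of letters only.

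Ctsk encodes cathepsin K, a collagen- and elastin-degrading protease best known from osteoclasts. Its gene lies on chromosome 3 (95499256 to 95509362, GRCm38, plus strand), upstream of Ctss at 95526786 to 95556403. Ctsk had 2.02, 13.9 and 7.00 CPM in WGP replicates 1, 2 and 3, against 81.0, 79.2 and 67.9 CPM in the PBS replicates. The 2 groups were far apart, and the WGP libraries differed more among themselves than the PBS libraries did. The raw counts behind these values were 36, 263 and 128 in WGP libraries and 1667, 1525 and 1428 in PBS libraries. The log2 fold change was -3.31 ± 0.66 (SE), with a 95% interval of -5.07 to -1.54 (adjusted p = 0.023, edgeR).

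The fold change of Ctsk kept its sign in all 17 alternative fits, at -4.06 to -2.86, but its call was lost in 7 of them. Leaving out WGP replicate 3 gave an adjusted p of 0.081, and leaving out PBS replicate 1, 2 or 3 gave 0.078, 0.072 and 0.064, in edgeR. It was 0.065 with replicate numbers as blocks and 0.076 with a covariate for Y-linked transcripts. With PBS replicates 1 and 3 both left out it was 0.239. It passed without WGP replicate 1 or 2. Relative to Ctss in the same library, a ratio free of any scaling, there were 0.957, 5.79 and 3.22 counts of Ctsk per 1000 counts of Ctss in WGP libraries, against 37.0, 35.7 and 31.1 in PBS libraries.

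Ctsd encodes cathepsin D, the main aspartic endopeptidase of lysosomes, which also cleaves other lysosomal precursors. It lies on chromosome 7 (142375911 to 142388038, minus strand). Ctsd had 330, 395 and 337 CPM in WGP libraries, against 1150, 1293 and 852 CPM in PBS libraries. Every WGP library was below every PBS library, and PBS replicate 3 was the lowest of its group. The level was 3.10-fold lower after WGP (log2 fold change -1.63 ± 0.16, adjusted p = 0.00033, edgeR) and the call held in all 17 alternatives (-1.87 to -1.51). There were 140, 177 and 143 counts of Ctsd per 1000 counts of Ctsb in WGP libraries, against 479, 523 and 330 in PBS libraries.

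Ctsl encodes cathepsin L, a cysteine endopeptidase of broad specificity. It lies on chromosome 13 (64359337 to 64370890, minus strand). Ctsl had 84.5, 68.1 and 68.7 CPM in WGP libraries, against 115, 123 and 110 CPM in PBS libraries. The groups did not overlap, and WGP replicate 1 was nearest to the PBS libraries. The log2 fold change was -0.65 ± 0.10 (adjusted p = 0.00071, edgeR), and it passed in all 17 alternatives (-0.76 to -0.59).

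The alveolar macrophage marker sum moved with the 3 members that fell, as did the interstitial, endothelial, epithelial and fibroblast sums given above. The dendritic cell sum, given below, was lower after WGP too. The part of these cells in the change was not tested. The alveolar sum was 1317, 1649 and 1472 CPM in WGP replicates 1, 2 and 3 and 6391, 7654 and 5063 CPM in PBS replicates 1, 2 and 3. Chil3 alone had 696, 822 and 735 CPM of it in WGP libraries and 3396, 4259 and 2778 CPM in PBS libraries. Among the WGP libraries Ctsk and Ctsd were lowest in replicate 1 and highest in replicate 2, as was the marker sum, while Ctsl was highest in replicate 1. Among the PBS libraries Ctsd and Ctsl followed the order of the sum, and all 3 members were lowest in replicate 3. The endothelial, T and NK cell and B cell sums were likewise lowest in WGP replicate 1 and highest in WGP replicate 2, and the other sums were not. The epithelial, monocyte, neutrophil and osteoclast sums had the same order of PBS libraries as the alveolar sum, and the others did not. Such orders thus do not set the alveolar sum apart. Siglecf, a surface lectin of alveolar macrophages, had 1.29, 16.1 and 9.30 CPM in WGP libraries, against 102, 119 and 70.2 CPM in PBS libraries. Of the 6 tested osteoclast markers, a cell type in which Ctsk is a defining gene, the acid phosphatase gene Acp5, the fusion protein gene Dcstamp and the proton pump gene Atp6v0d2 fell, Nfatc1 rose and 2 did not pass. Atp6v0d2 is also on the alveolar list.

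**Figure D3:**
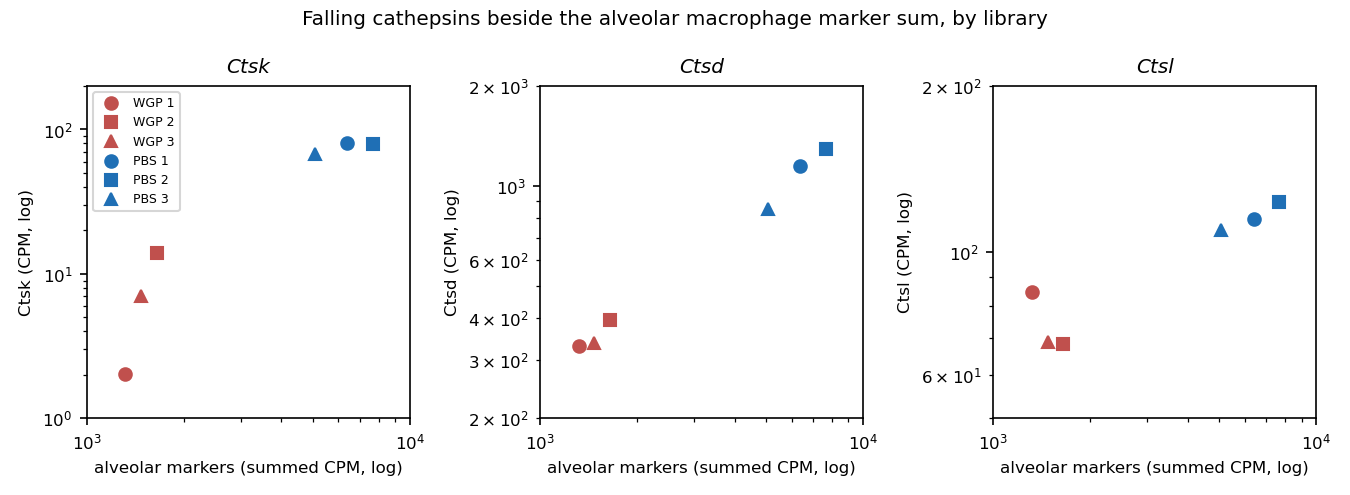
CPM of Ctsk, Ctsd and Ctsl (log axes) against the summed CPM of 15 alveolar macrophage markers, 1 point per library, with WGP in red and PBS in blue. The WGP libraries lie at marker sums of 1317 to 1649 CPM and the PBS libraries at 5063 to 7654 CPM, and the groups are apart on both axes in each panel.

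Ctse and Ctsh were the members that rose. Ctse encodes cathepsin E, an aspartic endopeptidase of endosomes, and lies on chromosome 1 (131638306 to 131675505, plus strand). Ctse had 36.2, 36.9 and 40.5 CPM in WGP libraries, against 16.9, 22.4 and 19.8 CPM in PBS libraries. All WGP libraries lay above all PBS libraries. The log2 fold change was 0.94 ± 0.13 (adjusted p = 0.00042, edgeR), and the call held in all 17 alternatives (0.76 to 1.04). Ctse was thus opposite in direction to Ctsd, the other aspartic member. There were 110, 93.3 and 120 counts of Ctse per 1000 counts of Ctsd in WGP libraries, against 14.7, 17.3 and 23.3 in PBS libraries.

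Ctsh encodes cathepsin H, an aminopeptidase, and lies on chromosome 9 (90054152 to 90076089, plus strand). Ctsh had 542, 517 and 496 CPM in WGP libraries, against 427, 412 and 440 CPM in PBS libraries. The groups did not overlap, and the level was 1.22-fold higher after WGP (log2 fold change 0.28 ± 0.07, adjusted p = 0.0096, edgeR). The call was lost with library sizes alone as the scaling (log2 fold change 0.18, adjusted p = 0.073), where the median of all genes tested lay at -0.12, and without PBS replicates 1 and 3 together (0.33, adjusted p = 0.059). The monocyte sum was higher in every WGP library, as given above. Of 10 dendritic cell markers 3 fell (Cd209a, Zbtb46 and Ccl22) and 7 did not pass, and they summed to 198 ± 40.6 CPM in WGP libraries and 445 ± 60.2 CPM in PBS libraries, and the part of monocytes and dendritic cells in the changes of Ctse and Ctsh was not tested. B cell markers summed to 52.9 ± 26.2 CPM in WGP libraries and 57.5 ± 13.4 CPM in PBS libraries.

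**Figure D4:**
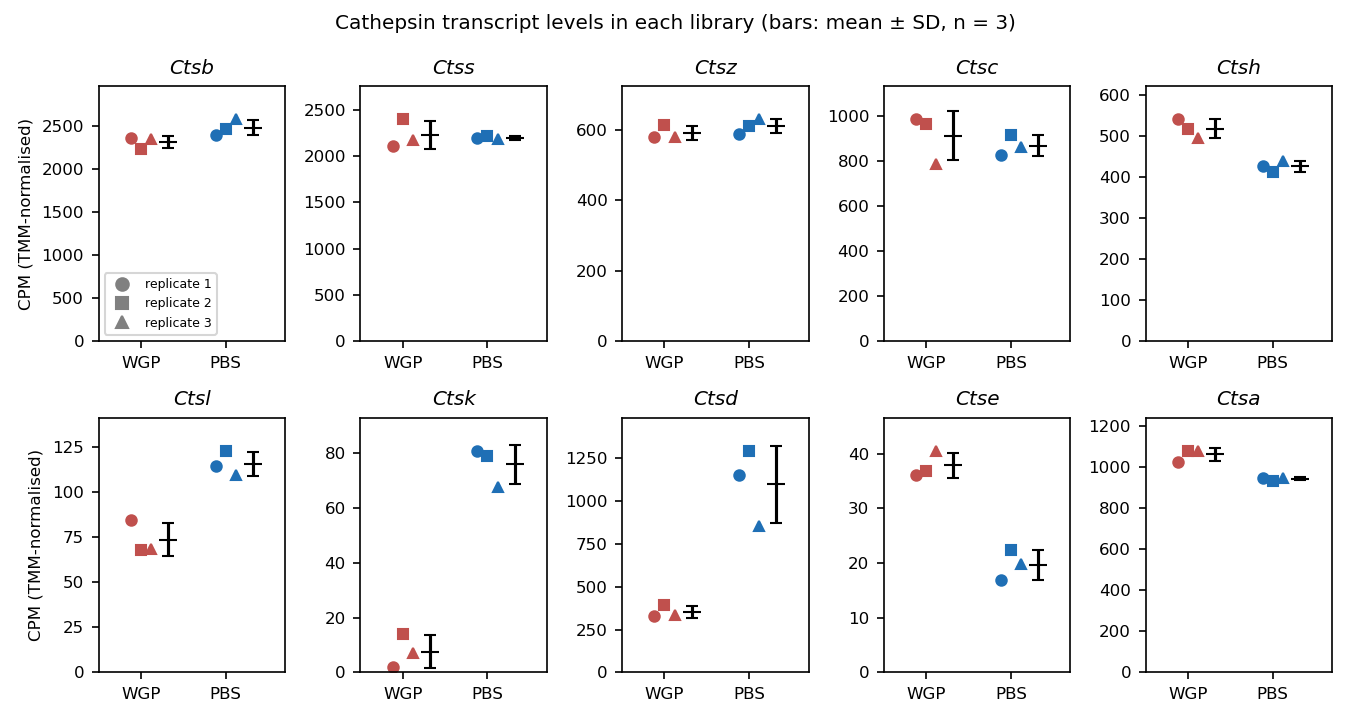
TMM-normalised CPM of each cathepsin in the 3 WGP and 3 PBS libraries (1 symbol per replicate number), with the mean and SD of each group, each panel on its own axis from 0. Ctsd, Ctsk and Ctsl are lower and Ctse and Ctsh higher in every WGP library than in any PBS library, while Ctss, Ctsc and Ctsz overlap.

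Among the 5 members that did not pass, the intervals were narrow. Ctss had 2112, 2400 and 2178 CPM in WGP libraries, against 2192, 2219 and 2184 CPM in PBS libraries. The WGP values bracketed the PBS values, and the 95% interval of the fold, WGP over PBS, was 0.91 to 1.13. Ctsb, a cysteine protease with both endopeptidase and dipeptide-releasing activity and the member with the most counts, had 2360, 2231 and 2353 CPM in WGP libraries, against 2404, 2471 and 2583 CPM in PBS libraries. The groups did not overlap, but the log2 fold change of -0.10 ± 0.07 did not pass (adjusted p = 0.27, edgeR), and its fold lay between 0.841 and 1.03. With library sizes alone as the scaling Ctsb passed as lower (-0.20, adjusted p = 0.027).

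Ctsz, a carboxypeptidase, ranged over 578 to 612 CPM in WGP libraries and 589 to 630 CPM in PBS libraries, with a 95% interval of the fold of 0.874 to 1.07. Ctsc, the dipeptidyl peptidase that activates granule serine proteases, ranged over 785 to 984 CPM in WGP libraries and 823 to 915 CPM in PBS libraries, with an interval of 0.913 to 1.21. The direction of Ctss and Ctsc depended on the scaling: with library sizes alone their log2 fold changes were -0.08 and -0.03, in place of 0.02 and 0.07. Ctsa, which besides its peptidase activity protects lysosomal β-galactosidase and neuraminidase 1, had 1026, 1080 and 1080 CPM in WGP libraries, against 949, 935 and 948 CPM in PBS libraries. The groups did not overlap, and the log2 fold change of 0.17 ± 0.06 missed the threshold in edgeR (adjusted p = 0.066, 95% interval of the fold 1.02 to 1.24) but passed with DESeq2 (0.022) and limma-voom (0.043). Of all genes tested, 48.1% had no overlap between the groups (23.2% higher and 24.9% lower), and of the 10 members 7 had none (3 higher and 4 lower).

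Some exons of members overlap those of other genes, and without a stated strand setting reads there cannot be told apart. Ctsa overlaps Pltp on the other strand, which had 38.8% as many counts as Ctsa over all libraries and fell (-0.71, adjusted p = 0.0057, edgeR), and it overlaps Neurl2 (0.646%). Ctsz overlaps Nelfcd on the other strand (5.66%), and Ctsb overlaps Fdft1 (1.10%). Ctsd overlaps Gm49369 on its own strand, where a strand setting would not separate the reads. Gm49369 had 0 counts, and how reads shared by 2 genes were counted is not stated, so the level of Ctsd may be affected. Ctsl overlaps a pseudogene and an antisense gene. Ctsc, Ctse, Ctsh, Ctsk and Ctss overlap no annotated exon of another gene.

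Other genes of the family were few. Of 15 further genes listed (further cathepsins and 2 tubulointerstitial nephritis antigen relatives), 9 had no count in any library and 5 were tested. Ctsf, a cysteine cathepsin, averaged 4.63 ± 1.45 CPM in WGP libraries and 17.5 ± 3.07 CPM in PBS libraries (log2 fold change -1.92 ± 0.25, adjusted p = 0.00035, edgeR). Tinagl1, a matrix protein related to cathepsin B, fell at low levels (1.24 ± 0.67 CPM in WGP libraries, 4.07 ± 2.38 CPM in PBS libraries, adjusted p = 0.040), a call that held without WGP replicate 2 or PBS replicate 3 and was lost when any of the other 4 libraries was left out (0.062 to 0.25). Ctso and Ctsw, a protease of killer lymphocytes, did not pass (log2 fold changes -0.10 ± 0.11 and -0.38 ± 0.49), nor did Ctsg, a neutrophil granule protease.

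Of 15 listed inhibitors 7 were tested, 3 fell and none rose (median log2 fold change 0.04). Cst3, the secreted inhibitor cystatin C, had 1117 to 1192 CPM in WGP libraries and 1329 to 1503 CPM in PBS libraries (-0.26 ± 0.07, adjusted p = 0.023, edgeR). Its call was lost without WGP replicate 1 (0.079) or 3 (0.061) and with the Y-linked covariate (0.144). Cstb, the cytosolic inhibitor stefin B, averaged 57.2 ± 0.78 CPM in WGP libraries and 79.2 ± 3.78 CPM in PBS libraries (-0.47 ± 0.08, adjusted p = 0.0013). Serpinb1a, an inhibitor of neutrophil serine proteases, averaged 16.3 ± 3.57 CPM in WGP libraries and 44.4 ± 8.53 CPM in PBS libraries (-1.45 ± 0.19, adjusted p = 0.00046). Cst7, the inhibitor cystatin F, did not pass (0.82 ± 0.87).

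All 16 genes of lysosomal enzyme sorting and maturation were tested, and 6 rose, 5 fell and 5 did not pass (median -0.06). Psap, the precursor of the saposins, averaged 10177 ± 357 CPM in WGP libraries and 7683 ± 460 CPM in PBS libraries (0.41 ± 0.07, adjusted p = 0.0019, edgeR). The lysosomal membrane protein gene Lamp2 (0.51 ± 0.07) and the adaptor gene Gga1 (0.38 ± 0.08) also rose, and the adaptor gene Gga2 fell (-1.42 ± 0.18). Among the others that fell, named after their values were seen, were Lgmn, the asparaginyl endopeptidase that cleaves cathepsin precursors (-0.43 ± 0.09), Igf2r, the large mannose 6-phosphate receptor (-0.55 ± 0.12), Gnptg (-0.52 ± 0.15) and Scarb2 (-0.23 ± 0.07). M6pr, the small receptor, did not pass (-0.12 ± 0.07).

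Of 9 regulators of lysosomal genes 2 rose, 1 fell and 6 did not pass (median -0.10). Tfeb, which encodes a factor that binds CLEAR elements, averaged 123 ± 5.20 CPM in WGP libraries and 87.3 ± 13.7 CPM in PBS libraries (0.50 ± 0.11, adjusted p = 0.0051, edgeR), and its relative Tfe3 also rose (0.48 ± 0.07). Tfec, the macrophage member of the same family, averaged 9.63 ± 1.80 CPM in WGP libraries and 45.4 ± 10.2 CPM in PBS libraries (-2.24 ± 0.20, adjusted p = 7.0e-05). Mitf did not pass (-0.33 ± 0.12, adjusted p = 0.066), but passed as lower with upper quartile scaling (0.031) and library sizes alone (0.019). Of 17 proton pump subunits, which acidify the lysosome, 2 rose, 4 fell and 11 did not pass (median -0.03). Without PBS replicate 1, 3 passed (1 higher and 2 lower). Atp6v1a (0.46 ± 0.08) and Atp6v0a2 (0.27 ± 0.07) were higher, and Atp6ap2 (-0.46 ± 0.09) and Atp6v0a1 (-0.45 ± 0.10) were lower. The largest change of the list was that of Atp6v0d2, which had 3.54, 28.6 and 9.47 CPM in WGP libraries, against 307, 337 and 188 CPM in PBS libraries (-4.31 ± 0.84, adjusted p = 0.023, edgeR). Its call was lost without WGP replicate 3 (0.079) or PBS replicate 1 (0.076) or 2 (0.069).

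Genes of 2 processes that cathepsins serve, class II antigen processing and endosomal Toll-like receptor signalling, moved in different directions. Of 7 tested class II genes 4 fell (median -0.84): Cd74, the invariant chain that Ctss trims, averaged 5063 ± 910 CPM in WGP libraries and 9073 ± 457 CPM in PBS libraries (-0.84 ± 0.12, adjusted p = 0.00065, edgeR), and H2-Aa, H2-Ab1 and H2-Eb1 fell too (-0.86, -0.91 and -1.12). H2-Ab1 lost its call without PBS replicate 1 (0.053) or 3 (0.075), and with both these libraries left out the 4 genes had adjusted p between 0.070 and 0.288. Of 6 genes of endosomal Toll-like receptors and their chaperone 4 rose and none fell (median 0.48). Tlr9, a DNA receptor cleaved by cathepsins, averaged 140 ± 17.0 CPM in WGP libraries and 68.6 ± 14.9 CPM in PBS libraries (1.03 ± 0.16, adjusted p = 0.0023), and Unc93b1, the chaperone, averaged 1126 ± 51.3 CPM in WGP libraries and 697 ± 49.2 CPM in PBS libraries (0.69 ± 0.08). Tlr7 (0.49 ± 0.08) and Tlr13 (0.47 ± 0.08) rose as well. Of the 4 tested granule proteases that Ctsc activates only Prtn3 rose (2.63 ± 0.36, adjusted p = 0.00044), at 9.24 ± 2.95 CPM in WGP libraries and 1.49 ± 0.47 CPM in PBS libraries. Prtn3 shares exonic bases with Plppr3, a gene of the opposite strand. Gzma, Gzmb and Ctsg did not pass.

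**Figure D5:**
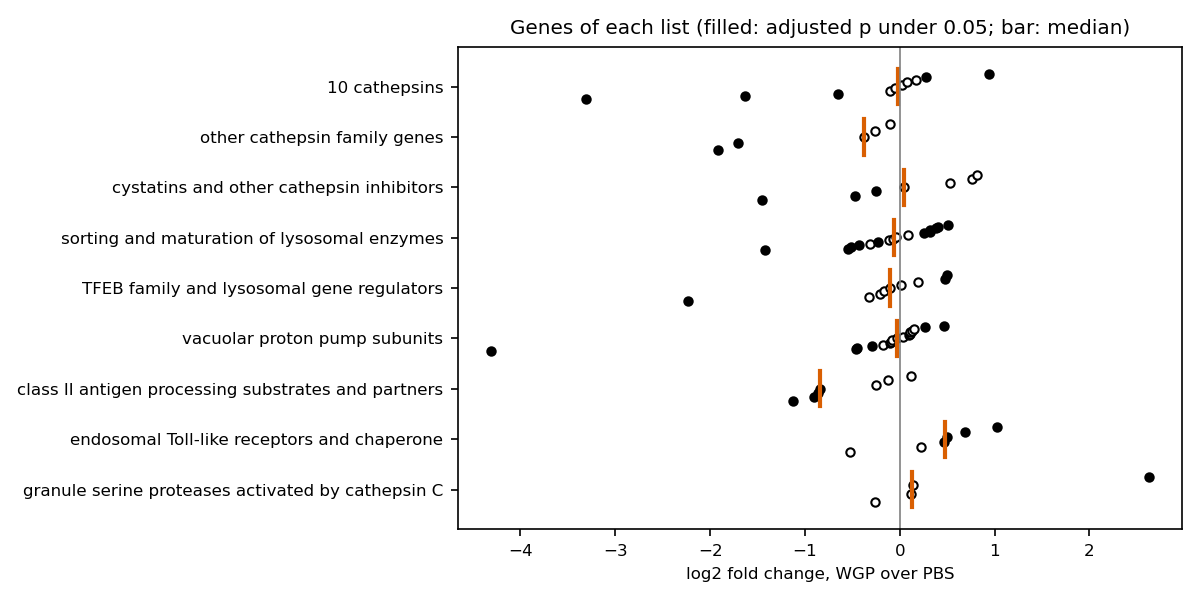
Log2 fold change (WGP over PBS) of every tested gene of the cathepsins and of 8 lists of related genes, filled where the adjusted p was under 0.05, with the median of each list as a bar. The medians lie at -0.84 for class II genes and 0.48 for endosomal Toll-like receptors and within 0.38 of 0 for the others.

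The genes whose levels followed those of the cathepsins most closely were sought among 4073 other genes with a mean of at least 50 CPM over all 6 libraries by Pearson correlation over the 6 libraries, on the log2(CPM + 1) scale. For the family sum they were Manf, Dnajc3 and Hspa1b (r = 0.998, 0.997 and 0.997). For Ctsk, the member with the lowest fold change, they were Slc7a2, Kcnn3 and Atp6v0d2 (0.996, 0.995 and 0.995), which passed that minimum through the PBS libraries alone, with means of 14.5, 5.80 and 13.9 CPM in WGP libraries and 137, 95.7 and 277 CPM in PBS libraries. For Ctse, the member with the highest, they were Cwc15, Trip11 and Dnajc14 (0.998 each). Their log2 fold changes were only 0.23, 0.42 and 0.10, against 0.94 for Ctse, and Dnajc14 did not pass the test. The 6 points fall into the 2 treatment groups, so these values mainly describe the group difference, and with so many candidates they are a description only.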

How the data were processed

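Read counts per gene were deposited by the authors for 6 mouse lung interstitial macrophage libraries, 3 WGP and 3 PBS. HTSeq 0.10.0, FastQC 0.10.1 and the genome builds mm10 and GRCm38 are named in the submitters' processing notes. No aligner, annotation or strand setting is given there. Per the labels' protocols, libraries were polyA-selected. Symbols, coordinates and merged exon lengths came from GENCODE M21 (GRCm38), which matched 21939 of 21965 identifiers.

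All libraries were fitted together with edgeR 4.0.16 (R 4.3.3; TMM scaling, filterByExpr, robust glmQLFit, two-sided quasi-likelihood F test), with Benjamini-Hochberg adjustment over 12305 genes. SE is the log2 fold change divided by the square root of F, and 95% intervals use the fit's degrees of freedom. CPM per kilobase is TMM-normalised CPM over merged exon length. DESeq2 1.42.0 and limma-voom (limma 3.58.1) were alternatives, as were other scalings and low-count filters, a fit without robust estimation, each library left out, a replicate block, a Y-linked covariate and leaving out PBS replicates 1 and 3 together. On simulated data for 12305 genes in this comparison, the fit recovered 41 of 69 genes changed 2-fold and 26 of 46 changed 1.5-fold, with 6 of 12105 unchanged genes called. Far fewer genes were changed there (46, 69 and 85 at 1.5-, 2- and 4-fold) than the 3809 called here. The adjustment depends on that share, so these rates need not hold for the real libraries. Replicates differed by a chi-square of 13.5 to 24.8 per degree of freedom, far above sampling noise. Totals were 18254678 to 20346517 counts, and 3 counts, the limit that a count of 0 allows, are 0.143 to 0.168 CPM on the TMM-normalised scale, for counting error only. The smallest two-sided p of an exact rank test of 3 against 3 libraries is 0.1, so no such test was used.

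The members and lists were chosen with earlier results of these data known. Named were all members, up to 4 genes of each list by smallest p, and the 3 genes most like the family sum, the lowest and the highest called member. Gnptg, Igf2r, Lgmn, M6pr, Scarb2, Siglecf, Chil3, Napsa, Cd209a, Zbtb46, Ccl22, Acp5, Dcstamp and Nfatc1 were added after their values were seen. Ifi30 is not analysed here.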

Additional observations from a re-analysis of the deposited data

How the results depend on the processing

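Ctsd, Ctsl and Ctse kept direction and call in all 17 alternatives. Leaving out 1 library gave 2491 to 3717 changed genes, against 3809 with all, 4 to 5 changed cathepsins, against 5, and 26 to 34 passing genes of the related lists, against 34. The lowest gene count came without PBS replicate 1. Without PBS replicates 1 and 3 together, which leaves 1 PBS library whose spread is assumed to be like that of the WGP libraries, 1820 genes, 3 cathepsins (Ctsd, Ctse and Ctsl) and 19 related genes passed, among them 7 of the sorting list and 1 proton pump subunit. Of the lysosomal regulators 5 passed, in place of 3, under upper quartile scaling, and 5 without any scaling beyond library size. The summed cathepsin level was 7820 CPM after WGP and 9158 CPM after PBS with library sizes alone, and 9081 CPM in the remaining PBS library, and 7989 to 8186 CPM after WGP and 8721 to 8914 CPM after PBS without any 1 library. With library sizes alone 33.4% of the changed genes were higher (1236 of 3696), in place of 49.2%, and with upper quartile scaling 1468 of 3671 were. No paired analysis followed from the replicate numbers, since deviations of same-numbered libraries correlated at -0.08 to -0.05. With the replicate block 3185 genes and 4 cathepsins passed. No library correlated best with its own number in the other group.

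Sign changes concerned only values that did not pass. Leaving out 1 library in turn gave -0.033 to 0.060 for Ctss, -0.63 to 1.32 for Cst7, -0.19 to 0.49 for Gzma, -1.16 to 0.15 for Ctsg and -0.38 to 0.51 for Gzmb. Ctsc (0.015 to 0.17) and Ctsw (-0.95 to -0.044) kept their sign in these fits. Ctss was -0.039 with upper quartile scaling and -0.081 with library sizes alone, where Ctsc was -0.027. Gzmb was -0.019 with limma-voom and -0.025 with the replicate block. With the Y-linked covariate Ctsw was 0.085 and Ctsg 0.24. Without PBS replicates 1 and 3 Ctsc was -0.0039, Ctsw 0.13, Ctsg 2.08 and Gzmb -0.27, while Cst7 (1.59) and Gzma (0.58) kept their sign. The cause was not tested. Depth is thinnest for Ctsk, with 36 to 263 counts in the WGP libraries.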
